A study of Mus musculus with 8 samples.

Results

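The genes for the constant regions of the T cell receptor chains (Trac, Trbc1, Trbc2, Trdc, Tcrg-C1, Tcrg-C2 and Tcrg-C4) and Ptcra, the gene for the pre-T-alpha chain, were followed by name in RNA-seq of mouse bone marrow cells sorted as Lin- CD127+. They are 8 of the 53647 genes in the count files, and each of the 8 had enough reads to enter the test, which covered 16352 genes. The knockout group held 4 libraries labelled Trerf1 knockout, KO1 to KO4, with the genotype spelled "Tref1 -/-". Trerf1 itself was at the level of a wild-type library in KO4, so KO4 names a library by its label alone. The wild-type group held 4 wild-type libraries, WT1 to WT4, labelled "Trerf1 +/+". Strain, age, the exons that the knockout allele lacks and the antibodies of the lineage panel are not given in the sources used here. The labels do not say that each library is a different animal, so p-values refer to the spread among these libraries, which may be technical. CD127 is the alpha chain of the interleukin 7 receptor, a surface protein of lymphoid progenitors and of innate lymphoid cells (ILCs).

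A T cell receptor is a pair of chains, alpha with beta or gamma with delta, and each chain joins a variable part to a constant part. The variable part is assembled in developing T cells when the RAG recombinase joins V, D and J gene segments, and splicing then links the joined segments to the constant gene downstream. Pre-T-alpha stands in for the alpha chain in the thymus, where it pairs with a newly made beta chain. Constant genes can also be transcribed before or without a complete rearrangement, and such transcripts are known from lymphoid progenitors, natural killer (NK) cells and ILCs. A read from a constant gene therefore does not by itself mark a T cell.

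None of the 8 genes differed between knockout and wild type past the threshold of an adjusted p of 0.05. The background was also empty, since 0% of the 16352 tested genes were called by the edgeR quasi-likelihood test (Benjamini-Hochberg adjusted). DESeq2 and limma-voom called 0 genes as well. At an unadjusted p under 0.05 the 3 tools listed 322, 565 and 891 genes, and edgeR's 322 were 1.97% of the genes tested. Evenly spread p-values would give a share of 0.05, so edgeR's share was low. Without WT4 and KO4 the same test listed 1427 of 16300 genes. An empty list of called genes therefore does not show that levels were equal. None of the 8 was among edgeR's 322 or limma-voom's 891, and Trac alone was among DESeq2's 565, at an unadjusted p of 0.0448 and an adjusted p of 1. Higher estimates in knockout were found for 7 of the 8 genes and for 51.7% of all tested genes, and the median log2 fold change was 0.27 over the 8 and 0.007 over all genes. Without the library labelled KO4, 5 of the 8 genes and 50.6% of all tested genes had higher estimates in knockout, and the median over the 8 was 0.02. None of the 8 had groups that did not overlap, against 1.28% of all tested genes.

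Libraries held 32821991 to 66515540 counts in knockout and 31109744 to 73414626 counts in wild type, with KO4, WT2 and WT4 the deeper ones. Xist, the RNA that coats an inactive X chromosome, was present in KO1, KO3, KO4, WT1 and WT4 and close to absent in KO2, WT2 and WT3, so 3 of 4 knockout and 2 of 4 wild-type libraries had it. Trerf1 was at 13.4, 12.8, 12.1 and 22.1 CPM in KO1 to KO4, against 29.0, 32.1, 27.1 and 22.3 CPM in WT1 to WT4 (CPM, counts relative to the library total, scaled by TMM throughout). The library labelled KO4 stood at the level of WT4, and RSEM gave it 6.54 TPM against 5.31 TPM in WT4 (TPM, RSEM's level per length and library). In CPM all knockout libraries were below all wild-type libraries, KO4 by only 22.1 against 22.3 in WT4. Trerf1 thus did not set KO4 apart from wild type as it did KO1 to KO3. Without the exons that the allele lacks, the genotype of KO4 cannot be told from these levels. Every direction drawn with KO4 in the knockout group rests on its label. The log2 fold change of Trerf1 was -0.87 ± 0.20 (SE), with an unadjusted edgeR p of 0.00151 and an adjusted p of 0.999. It was -1.11 ± 0.15 (adjusted edgeR p of 0.295) without KO4 and -1.20 ± 0.13 (adjusted edgeR p of 0.0473) without WT4 and KO4. The gene of CD127 itself, Il7r, was at 304 to 415 CPM in KO and 269 to 374 CPM in WT. Transcripts of Cd3e, which encodes a common target of lineage panels, were present too, at 5.03 to 10.7 CPM in KO and 4.78 to 8.10 CPM in WT. In such bulk samples, fewer cells of a type and less RNA per cell cannot be told apart.

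**Figure D1:**
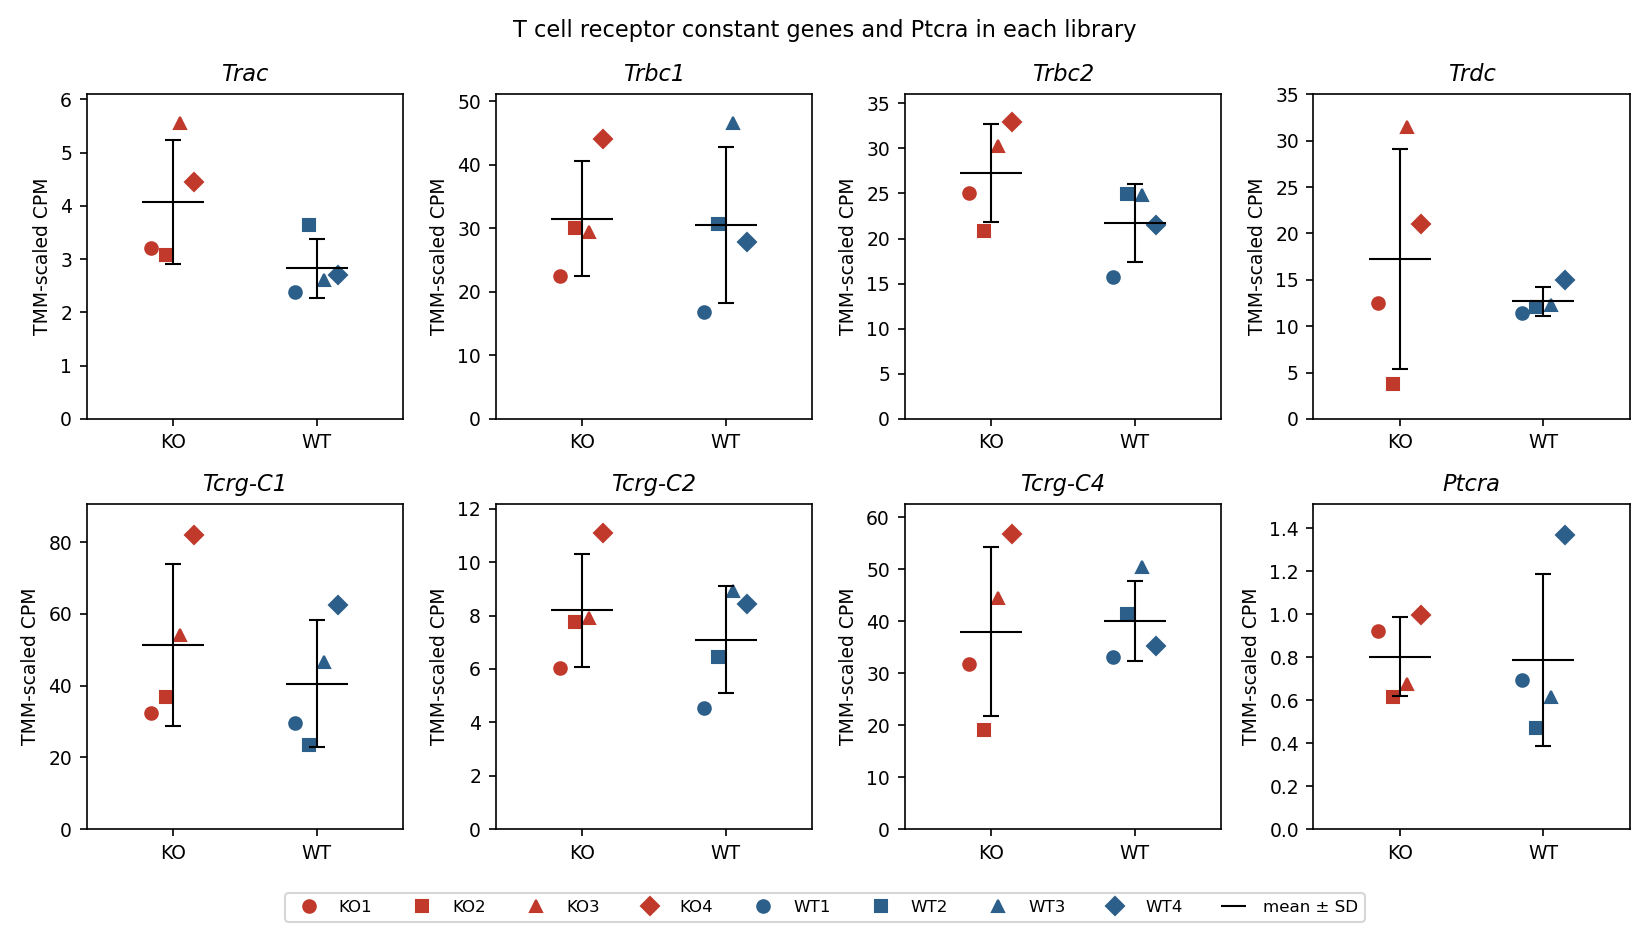
TMM-scaled CPM (y axis, from 0) of the 8 genes in the 4 knockout (red) and 4 wild-type (blue) libraries, with bars for mean and SD. The groups overlap in every panel, and the widest spread relative to its mean is that of Trdc in knockout, from 3.80 to 31.5 CPM.

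Trac encodes the constant region of the alpha chain (chromosome 14, 54457978 to 54461663, plus strand, in the count files' coordinates, GRCm39). It was at 3.21, 3.09, 5.56 and 4.45 CPM in KO1 to KO4, against 2.38, 3.64, 2.61 and 2.70 CPM in WT1 to WT4. KO3 and the library labelled KO4 lay above all wild-type libraries, while KO1 and KO2 lay below WT2. The means were 4.08 ± 1.17 CPM in KO and 2.83 ± 0.556 CPM in WT (SD, n = 4 each). With 82 to 295 counts per library, the log2 fold change was 0.52 ± 0.26 (SE), and the unadjusted edgeR p of 0.0731 was the smallest of the 8 genes, at rank 567 of 16352. RSEM assigned Trac 263 expected counts in all libraries together. Its counts per expected count were 1.1 to 1.6 times those of its library as a whole, so the counters differed on it. Trac kept a higher estimate in knockout under all 21 alternative settings, from 0.34 without KO3 to 0.79 among the libraries with Xist, and its smallest adjusted p was 0.694. Its unadjusted edgeR p was 0.0424 without KO2 and 0.0433 without WT2, at an adjusted p of 1 in both.

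Trbc1 and Trbc2 are the alternative constant genes of the beta chain, each behind its own D and J segments. Their first coding exons are close to identical in the GENCODE M21 transcripts (GRCm38), which decides how reads could be counted. The exon differs at 1 of 375 bases, an identity of 99.7%. A read that maps equally well to both genes was left out of the counts and shared out by RSEM. Of all 50-base windows, 41.1% of those in the Trbc1 transcript and 44.0% of those in the Trbc2 transcript also occur in the other gene. Of 100-base windows, 28.7% and 30.9% do.

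In the counts, Trbc1 (chromosome 6, 41515152 to 41516815, plus strand, GRCm39) was at 22.5, 30.1, 29.5 and 44.1 CPM in KO1 to KO4, against 16.8, 30.7, 46.5 and 27.9 CPM in WT1 to WT4. Wild type thus held both the lowest and the highest library. The means were 31.5 ± 9.04 CPM in KO and 30.5 ± 12.3 CPM in WT (SD, n = 4 each), and the log2 fold change was 0.05 ± 0.28 (SE). Its sign turned with single libraries, to -0.16 without KO4 and -0.16 without WT1, and with the counting, to -0.05 with RSEM expected counts.

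Trbc2 (chromosome 6, 41523664 to 41525286, plus strand) was at 25.0, 20.8, 30.3 and 33.0 CPM in KO1 to KO4, against 15.7, 25.0, 24.8 and 21.5 CPM in WT1 to WT4. KO1, KO3 and the library labelled KO4 were above all wild-type libraries, by a margin of less than 0.1 CPM for KO1, and KO2 was below 3 of the 4. Means of 27.3 ± 5.43 CPM in KO and 21.8 ± 4.32 CPM in WT (SD, n = 4 each) gave a log2 fold change of 0.33 ± 0.18 (SE), with an unadjusted edgeR p of 0.106. The estimate was 0.19 without WT1, 0.22 without KO4, 0.43 without KO2 (unadjusted edgeR p of 0.0367) and 0.65 ± 0.20 among the libraries with Xist (unadjusted edgeR p of 0.013), and the adjusted p was 1 in the last 2 cases. Relative to their library as a whole, counts per RSEM expected count were low for both genes, at 0.738 to 0.900 for Trbc1 and 0.670 to 0.778 for Trbc2. Both values lie under 1 in all 8 libraries, so both genes had fewer counts per expected count than their library as a whole, in knockout and in wild type.

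Trdc encodes the constant region of the delta chain and lies on chromosome 14 between delta and alpha segments (54380308 to 54386325, plus strand, GRCm39). It was the most variable of the 8 genes in knockout, at 12.5, 3.80, 31.5 and 21.0 CPM in KO1 to KO4, against 11.4, 12.1, 12.3 and 14.9 CPM in WT1 to WT4. KO2 was below and KO3 and the library labelled KO4 were above all wild-type libraries, and the ratio of the highest to the lowest of the 8 libraries was 8.3. The coefficient of variation was 68.9% in knockout and 12.2% in wild type, a difference in spread that was not tested. Means were 17.2 ± 11.9 CPM in KO and 12.7 ± 1.55 CPM in WT (SD, n = 4 each), with a log2 fold change of 0.44 ± 0.46 (SE) that became -0.02 without KO3 and -0.02 with the Xist class as a covariate. It was 0.77 ± 0.27 without KO2 (unadjusted edgeR p of 0.0167, adjusted p of 1), 0.71 ± 0.36 among the libraries with Xist and 0.33 without KO4.

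From gene start to gene end, introns included, Trdc shares 3437 bases with Gm43434 and 207 bases with Trdv5, both on the minus strand. How many of these bases lie in counted exons was not measured. The library kit does not mark strand, so reads there cannot be assigned to a strand. Reads that overlap exons of Trdc and of another gene were left out. Gm43434 and Trdv5 had 18 and 116 counts in all 8 libraries together, against 5627 for Trdc. Counts per expected count were 0.833 to 1.07 times the library's own ratio, so both counters gave Trdc a like share, and RSEM also placed KO2 lowest, at 1.28 TPM, and KO3 highest, at 12.2 TPM.

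Tcrg-C1, Tcrg-C2 and Tcrg-C4 are constant genes of the gamma chain, each with its own J segment. In the GENCODE M21 transcripts Tcrg-C1 and Tcrg-C2 are close copies and Tcrg-C4 is not. Over the first coding exon of 330 bases, Tcrg-C2 differs from Tcrg-C1 at 9 bases (97.3% identity) and Tcrg-C4 differs from Tcrg-C1 at 59 bases (82.1%). Windows of 50 bases shared with other genes make up 34.2% of the Tcrg-C1 transcript, 25.4% of the Tcrg-C2 transcript and none of the Tcrg-C4 transcript. With windows of 100 bases the shares were 8.24% for Tcrg-C1 and 0.613% for Tcrg-C2. Among these gamma genes, values of Tcrg-C1 and Tcrg-C2 are thus the less certain ones, by a margin that depends on the length of the window. Tcrg-C3, a further near copy, had 88 counts in all libraries together and was under the count filter.

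Tcrg-C1 (chromosome 13, 19398273 to 19401194, plus strand, GRCm39) was at 32.3, 36.8, 54.1 and 82.1 CPM in KO1 to KO4, against 29.7, 23.4, 46.6 and 62.5 CPM in WT1 to WT4. The library labelled KO4 was the highest and WT4 the next. Means of 51.3 ± 22.5 CPM in KO and 40.6 ± 17.6 CPM in WT (SD, n = 4 each) gave a log2 fold change of 0.34 ± 0.34 (SE), which was 0.02 without KO4 and 0.63 without WT4. With the replicate number as a block it was 0.35 ± 0.11 (unadjusted edgeR p of 0.0126, adjusted p of 0.936). The labels do not say that these numbers pair the libraries.

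Tcrg-C2 (chromosome 13, 19488819 to 19491721, minus strand) was at 6.02, 7.78, 7.90 and 11.1 CPM in KO1 to KO4, against 4.55, 6.43, 8.92 and 8.45 CPM in WT1 to WT4. Here too the library labelled KO4 was highest, and WT1 was lowest. The log2 fold change was 0.21 ± 0.26 (SE), with means of 8.20 ± 2.12 CPM in KO and 7.09 ± 2.01 CPM in WT (SD, n = 4 each), and it was 0.03 without KO4.

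Tcrg-C4 (chromosome 13, 19528728 to 19536926, plus strand) was at 31.7, 19.0, 44.5 and 56.8 CPM in KO1 to KO4, against 33.1, 41.5, 50.4 and 35.2 CPM in WT1 to WT4. All wild-type libraries lay inside the range of the knockout libraries, whose ends were KO2 and the library labelled KO4. It was the only one of the 8 genes with a lower estimate in knockout, at a log2 fold change of -0.07 ± 0.28 (SE) and means of 38.0 ± 16.3 CPM in KO and 40.0 ± 7.77 CPM in WT (SD, n = 4 each). The estimate was -0.33 without KO4, and the sign turned to 0.15 without KO2, 0.05 without WT3 and 0.37 among the libraries with Xist.

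Ptcra lies on chromosome 17 (47066589 to 47074638, minus strand, GRCm39), 377 kb before Trerf1 on the same chromosome, with 5 tested genes between them. It was the rarest of the 8, with 20 to 96 counts per library, and stood at 0.920, 0.617, 0.676 and 0.996 CPM in KO1 to KO4, against 0.696, 0.470, 0.613 and 1.37 CPM in WT1 to WT4. WT4 was highest and WT2 lowest, so wild type again enclosed knockout. Means were 0.802 ± 0.184 CPM in KO and 0.787 ± 0.400 CPM in WT (SD, n = 4 each), with a log2 fold change of 0.02 ± 0.40 (SE) whose sign turned without KO1, KO4, WT1, WT2 or WT3 (-0.04 to -0.17). RSEM assigned it 75 expected counts in all. Its counts per expected count ranged from 0.678 to 2.6 times the library's ratio, so the counters differed widely on it. The smallest change that could be detected at this depth was not computed. The 5 genes between Ptcra and Trerf1, among them Rpl7l1 at 254.5 ± 11.4 CPM in KO and 234 ± 13.5 CPM in WT, had a median log2 fold change of 0.05, and none passed.

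**Figure D2:**
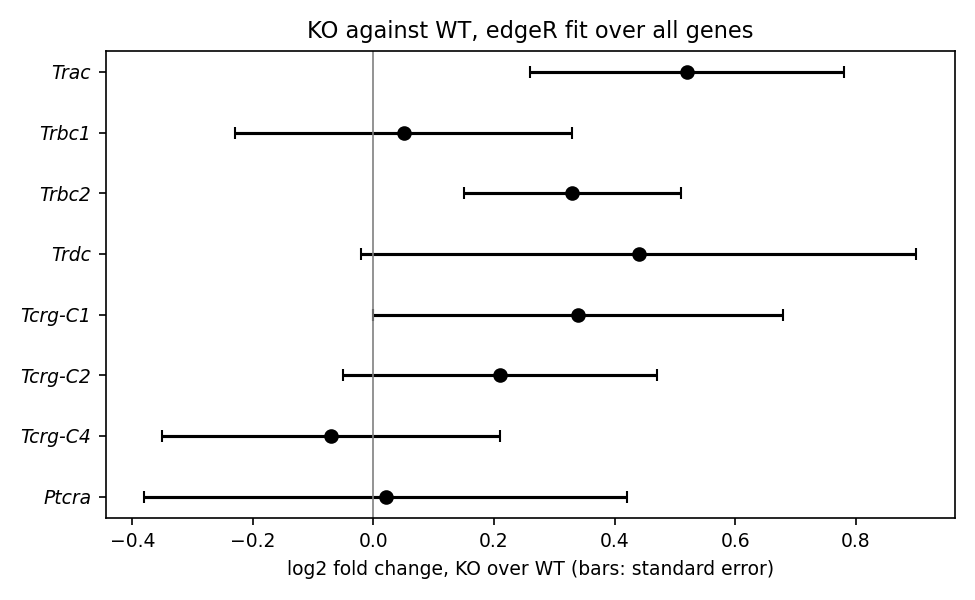
Log2 fold change of each gene, KO over WT, from the edgeR fit over all tested genes (x axis), with bars for 1 standard error. The points run from -0.07 for Tcrg-C4 to 0.52 for Trac, and the adjusted p was 0.999 for all 8.

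Divided by the length of their exons, the constant genes fell into a high and a low group. Mean levels over the 8 libraries were 49.7 CPM per kilobase for Tcrg-C1, 41.4 for Trbc1, 39.6 for Tcrg-C4 and 35.4 for Trbc2. These 4 were not separated from their neighbours in the order, since the higher of each adjoining pair was higher in 5, 4 and 6 of the 8 libraries. Below them came Tcrg-C2 at 8.36 CPM per kilobase, which was under Trbc2 in all 8 libraries with no overlap of their ranges. Trdc and Trac followed at 3.87 and 3.69 CPM per kilobase and were not separated, with Trdc higher in 5 of 8 libraries. Ptcra was lowest at 0.620 CPM per kilobase, under Trac in all 8.

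The position of Trdc depends on this division, because its exon model of 3865 bases is far longer than the 692 to 1283 bases of the other 7 genes. In RSEM's TPM, which are per length as well, the same 4 genes came first, though in another order: Trbc1 at 89.5 TPM, Tcrg-C1 at 85.8 TPM, Trbc2 at 82.4 TPM and Tcrg-C4 at 55.8 TPM. Tcrg-C2 at 12.1 TPM, Trdc at 6.16 TPM, Trac at 5.73 TPM and Ptcra at 0.851 TPM kept their places. The gene for the alpha constant region was thus low beside those for the beta constant regions on both scales, in knockout (4.36 CPM per kilobase for Trac, 42.1 for Trbc1 and 39.4 for Trbc2) and in wild type (3.03 CPM per kilobase for Trac, 40.7 for Trbc1 and 31.5 for Trbc2).

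**Figure D3:**
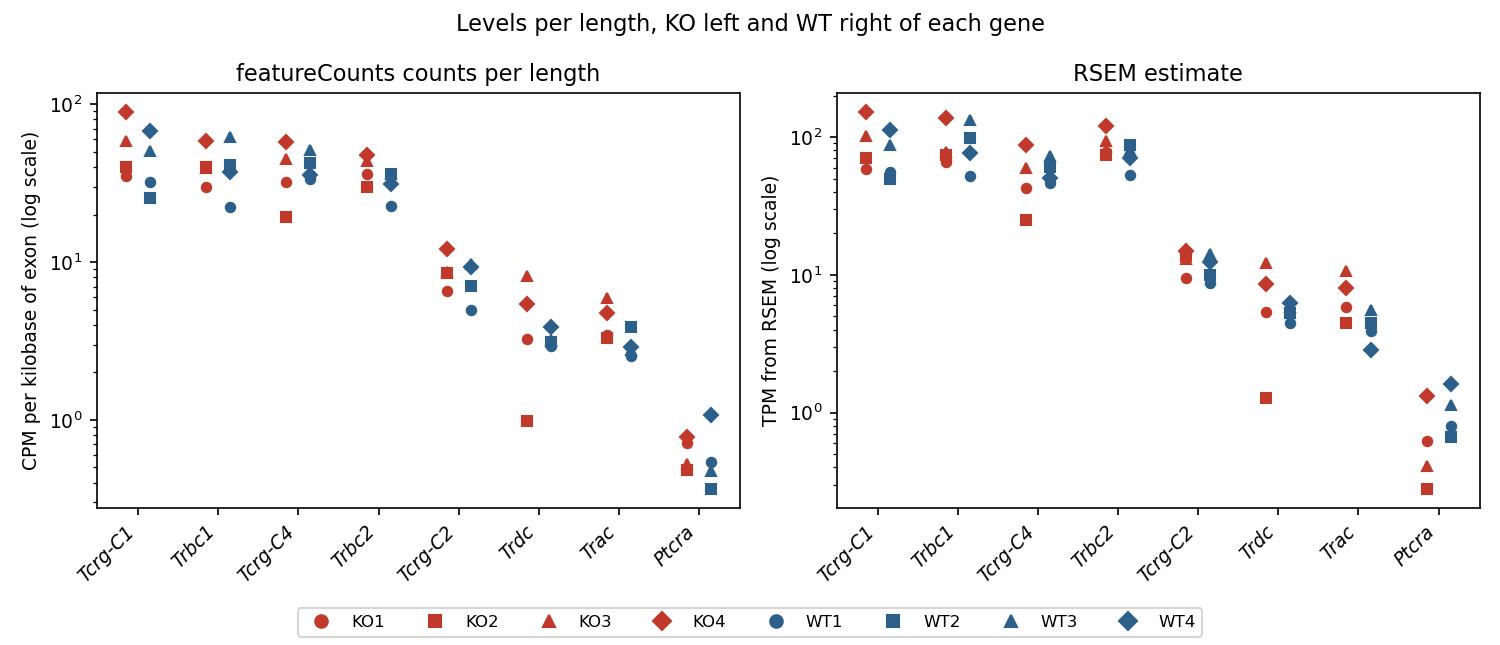
Levels per length of the 8 genes on log axes, as CPM per kilobase of exon (left panel) and RSEM TPM (right panel), with knockout points left of wild-type points for each gene. Tcrg-C1, Trbc1, Tcrg-C4 and Trbc2 lie above Tcrg-C2, Trdc, Trac and Ptcra on both scales.

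The balance of gamma-delta over alpha-beta constant genes within each library did not separate the groups. The ratio of summed counts, Trdc and the 3 gamma genes over Trac and the 2 beta genes, was 1.63, 1.25, 2.11 and 2.10 in KO1 to KO4, against 2.26, 1.41, 1.6 and 2.32 in WT1 to WT4. KO2 was lowest and WT4 highest, and the ranges overlapped over most of their length. On the log2 scale the mean was 0.79 ± 0.36 in knockout and 0.89 ± 0.36 in wild type (SD, n = 4 each), a difference of -0.10. Under 15 alternatives it lay between -0.42, for Trdc over Trac alone, and 0.06, without KO2, and the pooled SD was 0.36. Scaling of libraries cannot change a ratio within a library, and leaving out 1 library can shift a group mean only by less than the SD. Trdc over Trac is a different ratio with its own spread. The small moves are therefore no support for a stable difference.

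The summed levels behind the ratio were 115 ± 48.2 CPM in KO and 100.4 ± 22.4 CPM in WT for the gamma-delta genes, and 62.9 ± 13.9 CPM in KO and 55.1 ± 16.2 CPM in WT for the alpha-beta genes. Per kilobase of exon the ratio was 1.11, 0.934, 1.35 and 1.48 in KO1 to KO4, against 1.55, 0.959, 1.14 and 1.63 in WT1 to WT4. In counts per kilobase, both kinds of constant gene were thus at like levels in KO2 and WT2. On that scale the gamma-delta genes were ahead in the other 6 libraries, by least in KO1 (1.11) and WT3 (1.14). Counts leave out reads that map equally well to Trbc1 and Trbc2, and the order was not the same in RSEM's TPM. There, KO1 had Trbc1 at 65.7 and Trbc2 at 78.0 TPM, above Tcrg-C1 at 58.9 and Tcrg-C4 at 42.5 TPM. Both beta genes were above Tcrg-C1 and Tcrg-C4 in KO2 and WT2 too. In WT3, Trbc1 at 132.5 TPM was above Tcrg-C1 at 87.5 TPM, and Trbc2 at 81.1 TPM was below it. Tcrg-C1 was above both beta genes in KO3, KO4, WT1 and WT4. In WT4, Tcrg-C1 at 112 TPM was above Trbc1 at 76.6 and Trbc2 at 70.4 TPM. Which kind of constant gene was ahead per length thus depended on the counter.

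Ratios of single pairs of genes overlapped between the groups as well. Counts of Trdc over those of Trac were 3.9, 1.23, 5.66 and 4.73 in KO1 to KO4, against 4.79, 3.32, 4.73 and 5.53 in WT1 to WT4, with KO2 far below the rest. The ratio of Trbc1 to Trbc2 counts was 0.899, 1.45, 0.974 and 1.34 in KO1 to KO4, against 1.06, 1.23, 1.87 and 1.3 in WT1 to WT4, so Trbc2 had more counts in KO1 and KO3 and Trbc1 in the other 6. For Tcrg-C1 over Tcrg-C4 it was 1.02, 1.94, 1.21 and 1.44 in KO1 to KO4, against 0.897, 0.565, 0.924 and 1.78 in WT1 to WT4. Every knockout library was above 1 and 3 of the 4 wild-type libraries were under 1, but WT4 exceeded 3 knockout libraries. These ratios are scores over the genes themselves and get no test.

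**Figure D4:**
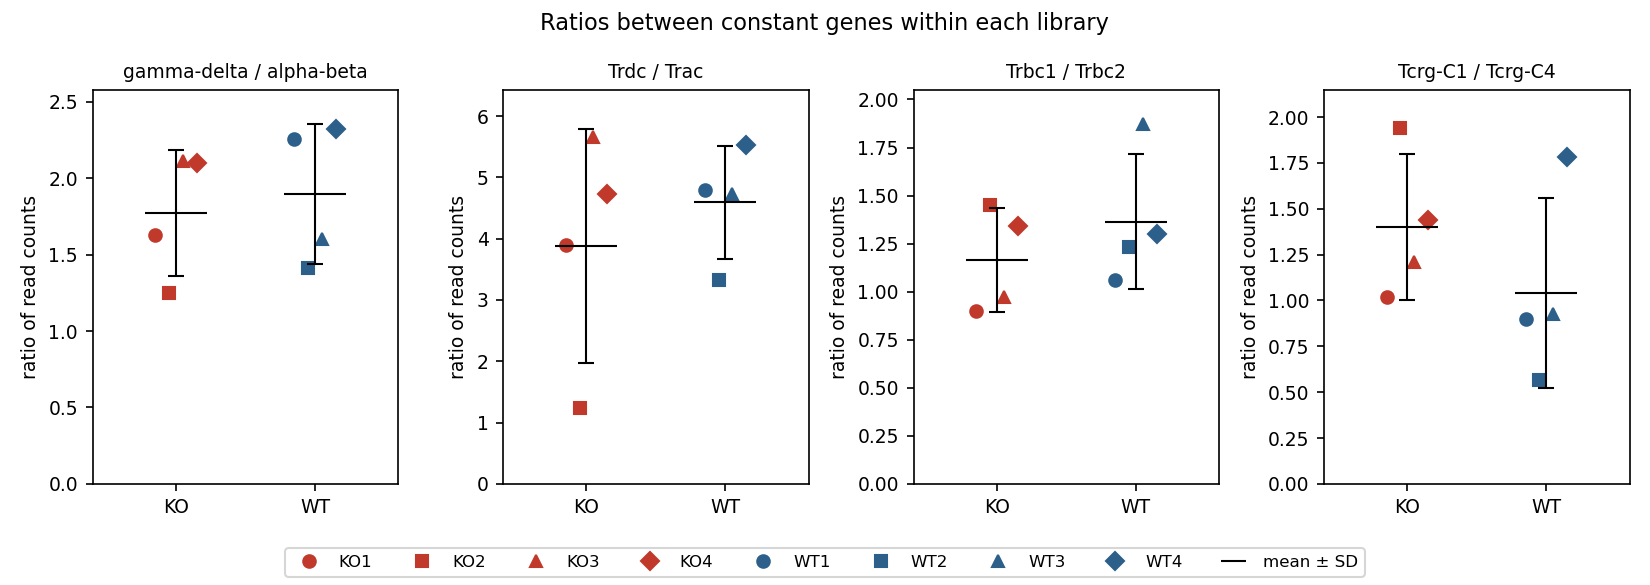
Ratios of read counts within each library (y axes, from 0) for gamma-delta over alpha-beta constant genes, Trdc over Trac, Trbc1 over Trbc2 and Tcrg-C1 over Tcrg-C4, knockout left and wild type right, with mean and SD. The groups overlap in all 4 panels, and KO2 has the lowest ratio of Trdc to Trac, at 1.23.

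Variable, diversity and joining segments of the 4 receptor loci were also counted, and they show which parts of the loci were transcribed. Of 260 segments in the count files, 160 had at least 1 count and 35 entered the test. Higher estimates in knockout were found for 25 and lower ones for 10, with a median log2 fold change of 0.24, and none passed or reached an unadjusted p under 0.05 by edgeR (background 0% and 1.97%). Counts on segments were most numerous at the beta locus, with 10721, followed by delta with 4527, gamma with 4101, alpha with 973 and the V segments that alpha and delta share with 728.

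At the beta locus the reads gathered on the first cluster of joining segments. The D and J segments before Trbc1 had 53.8% as many counts as Trbc1 itself, whereas those before Trbc2 had 13.5% as many as Trbc2; these percentages are of counts and not per length. The first was 40.0, 52.0, 57.1 and 54.4% in KO1 to KO4, against 63.5, 55.1, 62.5 and 47.0% in WT1 to WT4. The second was 11.8 to 15.2% in knockout and 10.3 to 19.1% in wild type, so the 2 clusters did not overlap in any library and the genotypes overlapped in both. Trbj1-1, the most counted beta segment, was at 5.47 ± 1.40 CPM in KO and 5.83 ± 2.55 CPM in WT, Trbj1-2 at 2.73 ± 0.790 CPM in KO and 3.05 ± 1.28 CPM in WT, and the V segment Trbv13-2 at 3.02 ± 0.387 CPM in KO and 2.55 ± 0.320 CPM in WT (SD, n = 4 each). V segments of the beta locus together had 15% as many counts as both constant genes.

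At the delta locus 1 segment held most of the reads. Trdv4 had 83.8% of the counts on delta segments and was at 9.98, 3.18, 11.9 and 15.1 CPM in KO1 to KO4, against 7.10, 6.90, 11.4 and 12.4 CPM in WT1 to WT4. As for Trdc, KO2 was the lowest library. Trdv2-2 followed at 0.821 ± 0.549 CPM in KO and 0.879 ± 0.387 CPM in WT. The 2 delta J segments had 2.86% as many counts as Trdc.

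At the gamma locus the J segments Trgj1 and Trgj4, which precede Tcrg-C1 and Tcrg-C4, led with 1222 and 800 counts in all. Trgj1 was at 3.66 ± 2.10 CPM in KO and 2.40 ± 0.981 CPM in WT, and Trgj4 at 2.08 ± 0.966 CPM in KO and 2.03 ± 0.460 CPM in WT (SD, n = 4 each). They had 6.78% and 5.35% as many counts as their constant genes, and Trgj2 had 3.32% as many as Tcrg-C2. Trgv2, a V segment, was at 2.08 ± 1.49 CPM in KO and 1.86 ± 0.693 CPM in WT.

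Alpha segments were rare. The 60 J segments had 180 counts, 14.0% of those of Trac, and the leading V segments Trav2 and Trav13n-4 were at 0.460 ± 0.221 and 0.490 ± 0.2 CPM in KO, against 0.263 ± 0.201 and 0.237 ± 0.102 CPM in WT (SD, n = 4 each). Trav15-1-dv6-1, which can join alpha or delta, was at 0.781, 0.123, 2.09 and 1.42 CPM in KO1 to KO4, against 0.725, 0.516, 1.17 and 1.26 CPM in WT1 to WT4, with KO2 again lowest. A read that spans a J segment and a constant gene overlaps 2 genes and was left out of the counts, so spliced receptor transcripts are under-represented in all these values.

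The CD3 chains, which hold the receptor at the surface and signal for it, all had higher estimates in knockout, and none passed. Their median log2 fold change was 0.57, against 0.007 over all genes. Cd3g was at 6.58, 5.83, 15.1 and 13.3 CPM in KO1 to KO4, against 3.83, 6.07, 5.58 and 7.64 CPM in WT1 to WT4. Cd3d was at 4.16, 4.14, 11.7 and 9.37 CPM in KO1 to KO4, against 3.60, 4.60, 4.05 and 5.15 CPM in WT1 to WT4. For both genes, KO3 and the library labelled KO4 were above all wild-type libraries and KO1 and KO2 were inside their range, the same 2 libraries that were high for Trac and Trdc. Cd3g had a log2 fold change of 0.82 ± 0.33 (SE) with an unadjusted edgeR p of 0.0324 and an adjusted p of 0.999. Without KO4 it was 0.66 ± 0.35 (unadjusted edgeR p of 0.0900), and the median of the 4 chains was 0.43. Cd247, the zeta chain that NK cells also use, was more abundant and lay at 30.4 ± 10.3 CPM in KO and 28.8 ± 11 CPM in WT (SD, n = 4 each), a log2 fold change of 0.08.

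Among 11 co-receptors and surface molecules of T cells, 10 had higher estimates in knockout and 1 had a lower one, with a median of 0.30 and none past the threshold. Cd5, which dampens receptor signalling, was at 16.7, 15.6, 14.9 and 12.9 CPM in KO1 to KO4, against 12.3, 11.8, 11.2 and 12.2 CPM in WT1 to WT4. The groups did not overlap, as for 1.28% of all tested genes, and the log2 fold change of 0.34 ± 0.13 (SE) had an unadjusted edgeR p of 0.0291 and an adjusted p of 0.999. Cd28, the costimulatory receptor, was at 55.3 ± 15 CPM in KO and 45.1 ± 9.37 CPM in WT, Cd6 at 78.2 ± 21.3 CPM in KO and 59.8 ± 15.7 CPM in WT, and Thy1 at 37.5 ± 4.46 CPM in KO and 33.8 ± 2.85 CPM in WT. Cd4, also known from plasmacytoid dendritic cells (pDCs), was highest in KO1 at 281 CPM and in WT1 at 193 CPM, while Cd8a was at 6.15 ± 0.650 CPM in KO and 6.85 ± 2.71 CPM in WT (SD, n = 4 each).

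Genes that act after the receptor or build it were near the centre of all genes. Of 17 genes of proximal signalling, 7 had higher and 10 lower estimates (median -0.02), among them the kinase gene Lck at 278 ± 62.4 CPM in KO and 241 ± 49.0 CPM in WT, and Trat1, an adaptor, at 5.29 ± 1.70 CPM in KO and 7.66 ± 2.30 CPM in WT. Of 11 genes of segment joining, 7 had higher and 4 lower estimates (median 0.06). Dntt, the terminal transferase that adds bases at the joins, was at 1933 ± 784 CPM in KO and 1826 ± 712 CPM in WT, and the recombinase genes Rag1 and Rag2 were at 27.3 ± 6.30 and 75.4 ± 25.7 CPM in KO, against 29.8 ± 14.0 and 71.5 ± 27.9 CPM in WT (SD, n = 4 each).

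Regulators of T lineage entry had 8 higher and 13 lower estimates of 21 (median -0.05). Lef1, a partner of Tcf7 in early T cells, was at 17.8, 11.1, 19.3 and 21.5 CPM in KO1 to KO4, against 12, 11.8, 11.7 and 12.9 CPM in WT1 to WT4, with KO2 below and the other 3 knockout libraries above all wild-type libraries. Its unadjusted edgeR p was 0.0183 and its adjusted p 0.999, and without KO4 the unadjusted edgeR p was 0.0592. Bcl11b, which seals T cell commitment, was at 8.04 ± 2.33 CPM in KO and 10.9 ± 5.11 CPM in WT (SD, n = 4 each). Of 15 tested genes known from gamma-delta T cells, 9 had higher and 6 lower estimates (median 0.10), with Sox4 at 234 ± 38.8 CPM in KO and 200.4 ± 55.9 CPM in WT and Zbtb16 at 17.8 ± 3.76 CPM in KO and 23.1 ± 7.65 CPM in WT.

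Markers of other cells that a Lin- CD127+ gate can hold were present in every library. The 12 pDC genes summed to 8112 to 10050 CPM in KO and 7355 to 12480 CPM in WT (3 higher and 9 lower estimates), led by Irf8 and Siglech. The 12 NK and ILC1 genes summed to 202 to 269.5 CPM in KO and 178 to 253 CPM in WT (6 higher, 6 lower), and the 12 ILC2 genes to 254 to 502 CPM in KO and 362 to 725 CPM in WT (2 higher, 10 lower, median -0.47). The 12 genes of common lymphoid progenitors summed to 8705 to 12980 CPM in KO and 8939 to 10220 CPM in WT (7 higher, 5 lower), the 12 B lineage genes to 776 to 948 CPM in KO and 689 to 858 CPM in WT (9 higher, 3 lower), and the 10 genes of ILC3 and lymphoid tissue inducer cells to 140 to 235 CPM in KO and 170 to 278 CPM in WT (3 higher and 5 lower of 8 tested). Without KO4, 1 of the 12 ILC2 genes had a higher and 11 had a lower estimate in knockout (median -0.73). None of these genes passed, and no list held a gene at 0 in all libraries, though Il17a and Il22 were at 0 in several and under the count filter.

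Among these markers, 3 of the 12 ILC2 genes had an unadjusted edgeR p under 0.05, against 1.97% of all tested genes. All 3 had lower estimates in knockout and an adjusted p of 0.999. Il9r, the interleukin 9 receptor, averaged 5.19 ± 3.10 CPM in KO and 11 ± 4.01 CPM in WT (log2 fold change -1.07 ± 0.41, unadjusted p 0.0258). Ccr8, a chemokine receptor, averaged 4.88 ± 3.78 CPM in KO and 10.6 ± 3.59 CPM in WT (-1.11 ± 0.47, unadjusted p 0.0379). Calca, which encodes calcitonin and a related neuropeptide, averaged 1.59 ± 1.05 CPM in KO and 4.24 ± 2.6 CPM in WT (-1.40 ± 0.57, unadjusted p 0.0332). Of the 12 B lineage genes, Lef1 and Cd79a had an unadjusted edgeR p under 0.05, with higher estimates. Cd79a, which carries signals for surface immunoglobulin, averaged 119 ± 17.8 CPM in KO and 91.6 ± 6.41 CPM in WT (0.38 ± 0.12, unadjusted p 0.00781, adjusted 0.999). Without KO4, 5 of the 12 ILC2 genes and 1 of the 12 B lineage genes had an unadjusted edgeR p under 0.05. So had 978 of all 16563 genes tested there, and none passed. The log2 fold changes were then -1.52 for Il9r, -1.80 for Ccr8, -1.72 for Calca and 0.34 for Cd79a. The smallest adjusted edgeR p of these 4 genes was 0.41. Their part in the receptor gene levels was not tested.

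KO2, the library with the lowest Trdc, Tcrg-C4 and Trdv4, also had the lowest sums for ILC2 genes (254 CPM) and ILC3 genes (140 CPM) and the highest for progenitor genes (12980 CPM), with Dntt at 3025 CPM. It is the only knockout library without Xist. The part of these differences in its receptor gene levels was not tested.

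Each of the 8 genes was set against the summed levels of the 7 cell type lists over the 8 libraries, 56 relations in all. Two-sided exact permutation tests left 2 Pearson correlations under an adjusted p of 0.05 and no Spearman correlation. Tcrg-C2 followed the NK and ILC1 list with r = 0.95 (exact permutation p 0.000298, adjusted 0.0167; rho = 0.88, p 0.00724, adjusted 0.2), and r was 0.88 without WT1 and KO1, the libraries farthest from the median. Trbc1 followed the same list with r = 0.92 (exact permutation p 0.00131, adjusted 0.0368; rho = 0.86, p 0.0107, adjusted 0.2), and r was 0.75 without the same 2 libraries. No depth or Xist class holds 6 libraries, so no r within a class is given. With class means removed, r was 0.94 for depth, 0.99 for Xist and 0.95 for genotype for Tcrg-C2, and 0.92, 0.91 and 0.92 for Trbc1. These relations used the counts and were not computed with RSEM. For Tcrg-C2, counts per RSEM expected count were lowest in WT1 (0.947 times the library's own ratio) and highest in KO4 (1.42 times). WT1 and KO4 also had the lowest and highest NK and ILC1 sums, at 178 and 269.5 CPM.

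The NK and ILC1 sum rests mainly on Nkg7, at 96.1 ± 23.7 CPM in KO and 101 ± 36.5 CPM in WT, on Klrd1 at 77.7 ± 7.31 CPM in KO and 72.5 ± 18.7 CPM in WT and on Klrk1 at 43.6 ± 15.1 CPM in KO and 33.5 ± 15.3 CPM in WT (SD, n = 4 each). More restricted NK genes were low, with Ncr1 at 1.85 to 4.69 CPM in KO and 3.04 to 5.15 CPM in WT, and Eomes at 0.771 to 1.41 CPM in KO and 0.232 to 1.56 CPM in WT. Further relations did not pass the correction. Tcrg-C4 against ILC2 genes gave r = 0.90 (exact permutation p 0.00355, adjusted 0.0662), Ptcra against pDC genes r = 0.87 (p 0.00660, adjusted 0.0924 by the same permutation test), and Trac against CD3 chains r = 0.71 (p 0.0459, adjusted 0.420 by the same permutation test). The largest part of the CD3 sum was Cd247, the chain that NK cells also use. It made up 21.7 of 54.7 CPM in KO4 and 45.2 of 60.2 CPM in KO2.

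**Figure D5:**
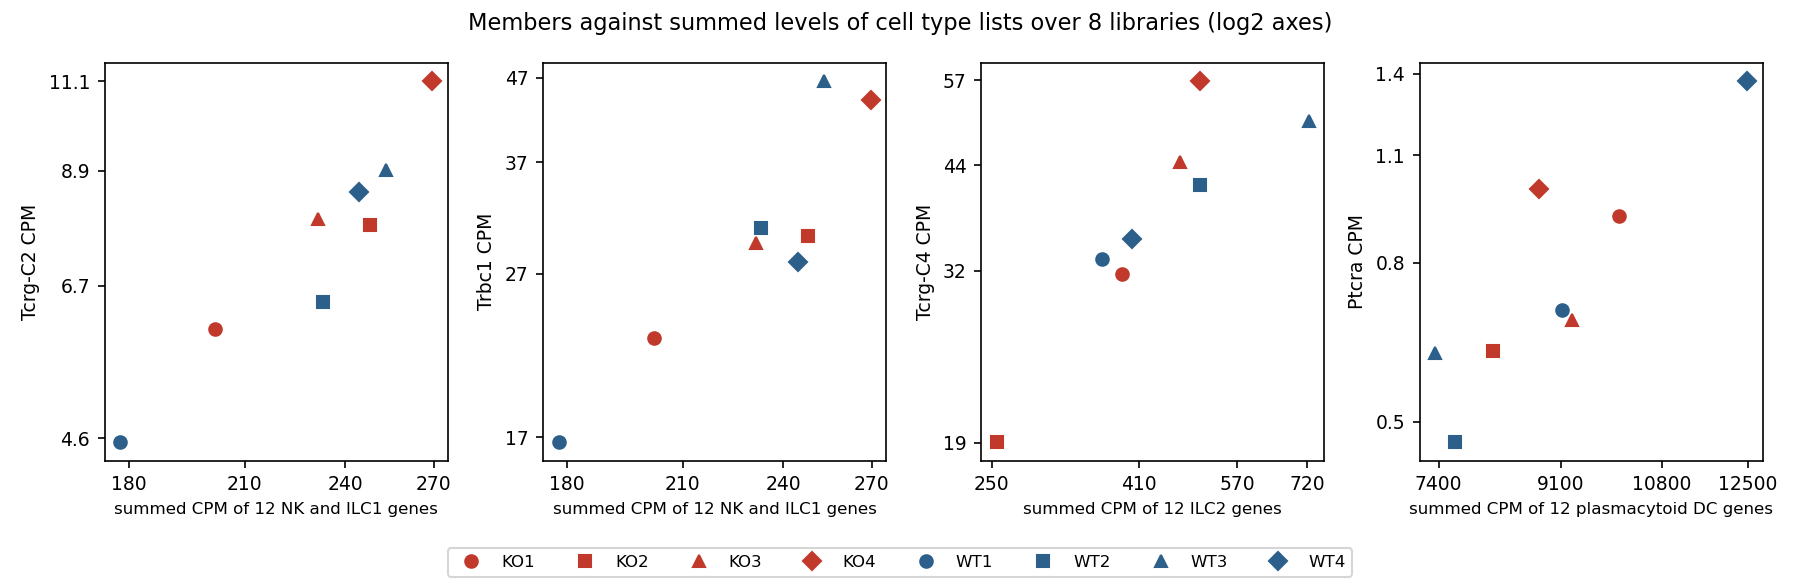
CPM of 4 receptor genes (y axes, log2 scale) against the summed CPM of a cell type list (x axes, log2 scale), 1 point per library, knockout red and wild type blue. WT1 lies at the low end and KO4 at the high end of the NK and ILC1 list for Tcrg-C2, and WT4 has the highest sum of pDC genes and the highest Ptcra.

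Among themselves the 8 genes mostly varied in the same direction. Over the 8 libraries 26 of 28 pairs had a positive r of log2 CPM, with a median of 0.46 and a range of -0.09 to 0.90, and none passed the correction over the 28 exact permutation tests. The highest was Trbc1 with Tcrg-C2 (r = 0.90, rho = 0.74, exact permutation p 0.00389, adjusted 0.107, r = 0.85 without WT1 and WT3), genes on different chromosomes. Trac with Trbc2, Tcrg-C1 with Tcrg-C2 and Trdc with Tcrg-C4 each gave r = 0.82. Trbc1 and Trbc2, the near copies, gave r = 0.70 (exact permutation p 0.0506, adjusted 0.236).

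Genes whose log2 CPM followed the receptor genes most closely were picked among 11512 candidates outside the receptor and immunoglobulin loci, so their r is given as a description. For the mean of Trac, Trbc1 and Trbc2, they were Arap2 (r = 0.974), Tfpi (0.940), Gimap1os (0.933), Thy1 (0.921) and Zbtb8os (0.917). Thy1, a surface protein of T cells and ILCs, is the only one of them in the lists above. For the mean of Trdc and the 3 gamma genes they were Tomm6 (r = 0.975), Timm8a1 (0.975), Nae1 (0.964), Whamm (0.957) and Gtf2h2 (0.956), and for Ptcra they were Wnt10a (r = 0.992), Nceh1 (0.987), Anxa6 (0.984), Mfhas1 (0.983) and Zfp780b (0.975). Wnt10a was at 2.72 ± 0.851 CPM in KO and 2.89 ± 1.90 CPM in WT (SD, n = 4 each), with WT4 highest in wild type as for Ptcra.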

How the data were processed

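RNA from Lin- CD127+ bone marrow cells was sequenced in 4 knockout and 4 wild-type libraries, made per the labels' protocols from 200 ng of total RNA with a low-input kit that does not mark strand. The authors deposited read counts per gene from featureCounts 1.6.4, per the file headers, on the defaults for strand, pairs and shared reads. Both strands and both mates were thus counted singly, duplicates stayed in, and reads with several map positions or several genes were left out. They also deposited RSEM 1.3.1 expected counts and TPM, per the file headers and the submitters' processing notes, which also name STAR 2.6.0a, Picard 2.19 and build mm10. The annotation path in the count headers names GRCm39, and gene coordinates are taken as that build. Sequence identity was computed on the longest GENCODE M21 transcript of each gene (GRCm38), and the exon sequences are not reported here.

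Of 53647 gene identifiers, 52093 (97.1%) matched a symbol. The counts were tested in R 4.3.3 with edgeR 4.0.16 (filterByExpr, TMM, quasi-likelihood F test, KO over WT, Benjamini-Hochberg adjustment over 16352 genes, threshold 0.05), after the step was tested on simulated data. SEs are from that fit. Log2 CPM in correlations between genes used a prior count of 3, and relations to list sums used log2 of CPM with none. Alternatives were RLE factors, library size alone, other filters, DESeq2 1.42.0, limma-voom (limma 3.58.1) with quality weights, rounded RSEM expected counts, the replicate number as a block, Xist or depth class as covariate or subset, and libraries left out. Depth classes split at 50000000 counts, and Xist classes at 10 CPM.

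The 8 genes, the gene lists and the alternatives were chosen with earlier results of these data known, so no count over them is independent support. Named are all 8 genes, Trerf1, up to 4 members of each list with the smallest p and 2 with the highest level, the 3 leading segments of a locus and the 5 genes most like each of 3 patterns (mean CPM of at least 1). Rag1, Rag2, Trat1, Ncr1, Eomes, Cd8a and Bcl11b and the markers of the sort were named for their role or values.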

Additional observations from a re-analysis of the deposited data

Results flagged for a closer look

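Trerf1 in the library labelled KO4 stood apart from the other knockout libraries. It was at 22.1 CPM there and at 12.1 to 13.4 CPM in KO1 to KO3, so the gap to the nearest library was 0.876 of the group's range, above Dixon's limit for 4 samples. None of the receptor genes, their sums or their ratios was so marked. Of 20 groups of 4 libraries examined, 1 was flagged, and chance alone flags about 1 in 20. The gamma-delta to alpha-beta log2 ratio of knockout minus wild type was -0.19 without KO4 and -0.10 with it.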

How the results depend on the processing

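None of the 8 genes passed the threshold under any setting run. Of 166 alternative values of the 8 log2 fold changes, 149 kept their direction and 17 turned. Trac (0.34 to 0.79), Trbc2 (0.19 to 0.65), Tcrg-C1 (0.02 to 0.63) and Tcrg-C2 (0.03 to 0.35) stayed above 0. Trbc1 turned to -0.05 with RSEM expected counts, -0.21 in the 5 shallower libraries, -0.20 without WT4 and KO4 together, and ranged from -0.16 to 0.32 with each library left out. Trdc turned to -0.02 with the Xist class as covariate and ranged from -0.02 to 0.77 with a library left out. Tcrg-C4 turned to 0.37 among the libraries with Xist and ranged from -0.33 to 0.15 with a library left out. Ptcra turned to -0.11 with the Xist class and -0.27 among the libraries with Xist, and ranged from -0.17 to 0.45 with a library left out. The causes were not tested. Over all genes, 0 were called in every setting but 1. Leaving out WT4 and KO4 together, 12 genes were called, all lower in knockout, Trerf1 among them and none of the 8, and 1427 had an unadjusted p under 0.05. In the fit of all 8 libraries, 322 had an unadjusted p under 0.05. The gamma-delta to alpha-beta log2 ratio ranged from -0.23 to 0.06 with each library left out.

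The labels do not say that library numbers pair the libraries, and the values did not settle it. Same-numbered libraries correlated at 0.36, 0.31, -0.03 and 0.12, and differently numbered ones at -0.25 to 0.20. KO1 and KO2 were closest to the wild-type library of their own number, and KO3 and KO4 were not. With the replicate block 0 genes were called and 634 had an unadjusted p under 0.05. Tcrg-C1, higher in knockout in 4 of 4 same-numbered pairs, had 0.35 ± 0.11 (SE) with the block, at an unadjusted p of 0.0126 and an adjusted p of 0.936.

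RSEM expected counts and a mean CPM of at least 1 left Ptcra under the filter and gave no value. Its 20 to 96 counts per library limit what can be seen of it. Counts of higher and lower estimates without the library labelled KO4 were added after seeing the data.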
